A study of Equus caballus with 20 samples.

Results

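Clusterin and complement genes were followed in the oviduct epithelium of the mare, by name, as CLU, CFB, CFI, C1R, C1S, C2, CD46, CD55 and SERPING1. Of these 9 symbols, 7 matched a feature exactly among the 26740 listed, and all 7 passed the filter on low values. CFB and CD46 were not found under those symbols and are not analysed here. The set holds complement proteases as well as regulators: C1R, C1S and C2 drive the cascade, whereas SERPING1, CFI, CD55 and CLU restrain it. No sequences of these genes were at hand, so none are printed.

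RNA was sequenced from epithelial cells taken where ampulla and isthmus of the oviduct meet, from Warmblood mares 4 days after ovulation. The 20 libraries form 4 groups of 5 biological replicates: pregnant mares on the side of ovulation (pregnant ipsilateral, PI) and on the opposite side (pregnant contralateral, PC), and cyclic mares on the side of ovulation (cyclic ipsilateral, CI) and on the opposite side (cyclic contralateral, CC). No treatment is given for any group, and the labels do not say whether libraries of the same number come from 1 mare. Values are the authors' TMM-normalized counts, that is, read counts put on a common scale with 1 factor per library.

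Complement is a cascade of proteases that marks cells and particles for removal. In the classical pathway C1q, bound to a target, activates the protease C1r, which activates C1s, and C1s then cleaves C4 and C2 to form the enzyme that splits C3. C1 inhibitor, encoded by SERPING1, inactivates C1r and C1s; factor I (CFI) degrades the active fragments of C3 and C4; CD55 dissociates the C3-splitting enzymes on cell surfaces; and clusterin (CLU), a secreted chaperone, binds the late components and keeps them from inserting into membranes. In human cells interferons raise the expression of C2 and SERPING1, among other complement genes. Sperm and embryo both pass through the oviduct and are exposed to its fluid.

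Recovered library sizes ran from 2795168 to 10126484 reads. Multiciliated cell markers were high in every library, with FOXJ1, the master regulator of motile cilia, at 2774 to 6344 normalized counts. Among oviduct secretory cell markers, the transcription factor PAX8 had 1410.3 to 2491, while OVGP1, the oviduct-specific glycoprotein, reached no more than 15.4. The 6 secretory markers found, PAX8 included, summed to 2186 to 2734 in PI and 1977 to 2413 in PC. They summed to 2136 to 3247 in CI and 1887 to 3037 in CC. Markers of other cells were also measured. The 12 T and NK cell markers summed to 171 to 590.2 normalized counts in PI, 259 to 997 in PC, 115 to 592 in CI and 120.2 to 257 in CC. The 9 myeloid markers summed to 400.4 to 1245 in PI, 579.8 to 1857 in PC, 518.7 to 1150.1 in CI and 587.8 to 1139 in CC. The 9 stromal fibroblast markers found summed to 1132 to 6837 in PI, 1792 to 4963 in PC, 2382 to 5099.9 in CI and 1346 to 8108 in CC. These are bulk libraries, so more cells of a type and more RNA per cell cannot be told apart. A single unnamed feature took 14.4% of the reads in PI1, 27.8% in PI4 and 15.4% in CI3, and at most 9.75% elsewhere.

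No member passed the test in any comparison. One limma model over all 14692 features kept, on log2 of the value plus a pseudocount of 0.5 CPM (3.0 normalized counts), called 0 of 7 members at an adjusted p of 0.05 for pregnant against cyclic mares on the ipsilateral side, where it called 0% of all features. The same held contralaterally, for ipsilateral against contralateral oviducts in pregnant and in cyclic mares, and for the interaction of pregnancy and side, each with 0 of 7 members and 0% of features called. At an unadjusted p under 0.05 the members also numbered 0 in each comparison, beside 3.5% of features ipsilaterally and 4.55% contralaterally for pregnancy, 0.762% for side in pregnant mares, 0.286% for side in cyclic mares and 0.32% for the interaction. On recovered reads, C2 and SERPING1 did have an unadjusted p under 0.05 contralaterally, by edgeR and by DESeq2, and neither passed after adjustment. The libraries of pregnant and cyclic mares overlapped for 7 of 7 members on both sides. Ipsilaterally, 0.191% of features lay wholly higher in pregnant mares and 0.402% wholly lower, against 0.313% and 0.272% contralaterally. The oviducts of the 2 sides overlapped for 7 of 7 members as well, beside 0.0476% of features wholly higher and 0.0885% wholly lower ipsilaterally in pregnant mares, and 0.0272% and 0.0408% in cyclic mares. What the members showed was a spread between single libraries, wide for C2 and SERPING1 and narrow for CFI and C1S.

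**Figure D1:**
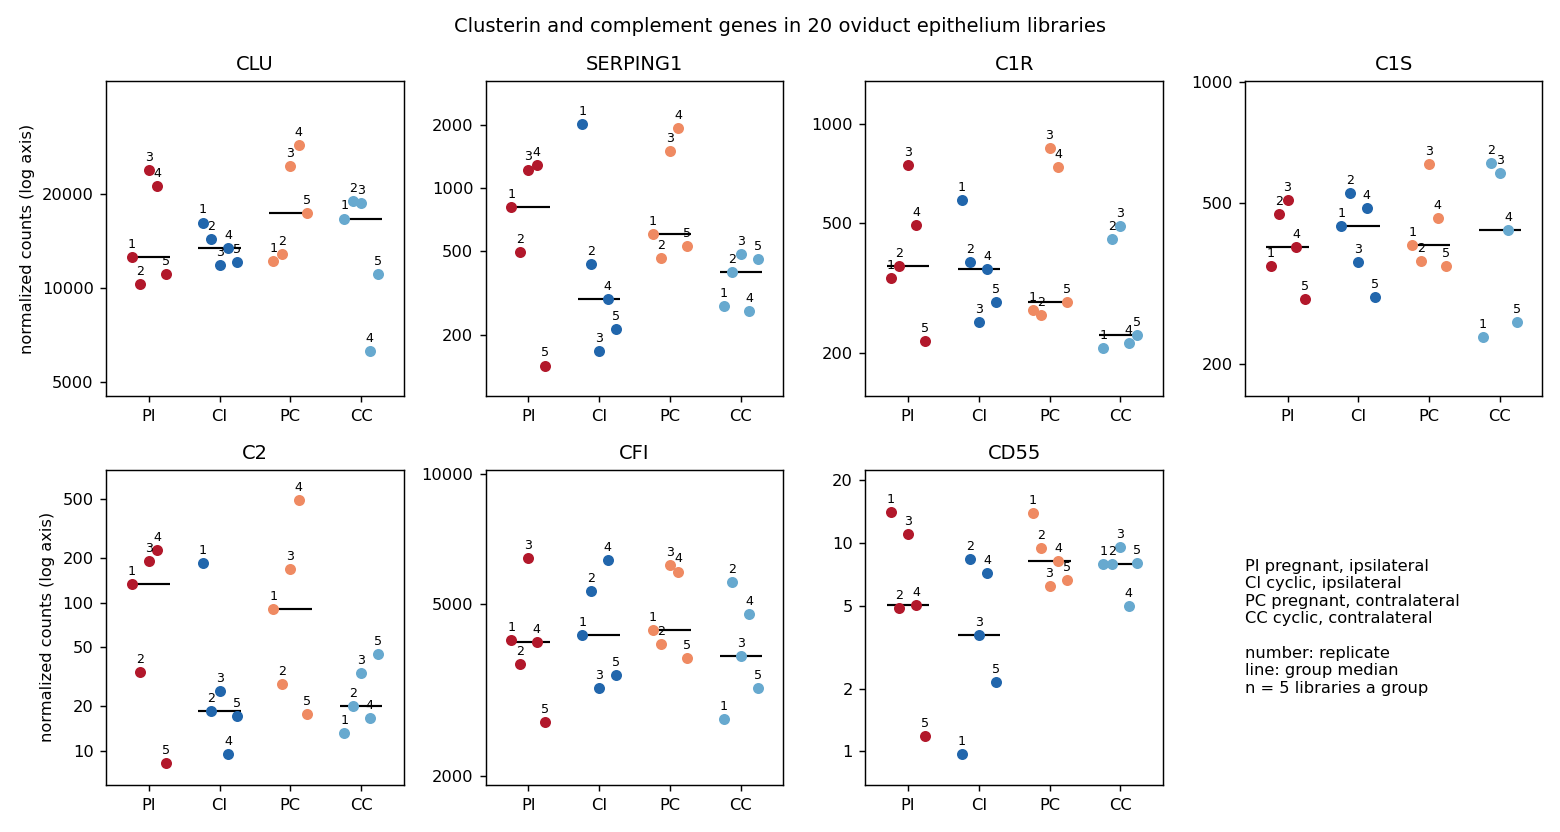
Normalized counts (log axis) of the 7 members in each library, with PI left of CI and PC left of CC; digits give the replicate number and lines the group median (n = 5 libraries a group). C2 runs over a 59.6-fold range, and its highest values are in PC4 (493), PI4 (228), PI3 (190.1) and CI1 (186).

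C2, the protease that C1s cleaves, varied most. It stood at 134, 34, 190.1, 228 and 8.27 normalized counts in PI1 to PI5, against 186, 18.5, 25.2, 9.6 and 17.1 in CI1 to CI5. Contralaterally it stood at 90.4, 28.3, 168, 493 and 17.7 in PC1 to PC5, against 13.2, 20.1, 33.6, 16.7 and 44.8 in CC1 to CC5. The libraries numbered 1, 3 and 4 were thus high in both oviducts of pregnant mares, numbers 2 and 5 lay near or within the cyclic range, and CI1 was the single cyclic library among the high ones. The lowest values rest on few reads, 7 in PI5 and 10 in CC1 and in CC4.

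The group means of C2 were 119 ± 95.7 in PI and 51.4 ± 75.7 in CI, and 159 ± 196 in PC and 25.7 ± 13.2 in CC (SD, n = 5 each). The log2 difference between pregnant and cyclic mares was 1.29 ± 0.87 (SE) ipsilaterally, a 2.44-fold difference with a 95% interval of 0.692 to 8.63 (limma, adjusted p = 0.999). Contralaterally it was 1.73 ± 0.87, or 3.31-fold with an interval of 0.937 to 11.7 (limma, adjusted p = 0.9998; unadjusted p = 0.0618). Means followed the order PC, PI, CI, CC, and each step was smaller than the SD of the higher group. Without PI1, PI4 and CI3, the 3 libraries where a single feature took the largest shares of reads, the ipsilateral difference was 0.44. That fit leaves out PI1 (134) and PI4 (228), both high in C2, and CI3 (25.2), and keeps CI1 (186). In count models the contralateral difference was 2.62 by edgeR (adjusted p = 0.788, unadjusted p = 0.0111) and 2.60 by DESeq2 (adjusted p = 0.400, unadjusted p = 0.0050).

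SERPING1, the inhibitor of C1r and C1s, shared the high libraries of C2. Its values were 808, 498, 1225, 1285 and 143 normalized counts in PI1 to PI5, against 2020.1, 435, 167, 298 and 214 in CI1 to CI5. In the contralateral oviduct they were 605, 463, 1499.8, 1929 and 529 in PC1 to PC5, against 275, 397, 483, 261 and 459 in CC1 to CC5. Contralaterally PC2 alone fell within the cyclic range, whereas ipsilaterally the groups overlapped fully, with CI1 the highest of all 20 libraries and PI5 the lowest.

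SERPING1 averaged 792 ± 484 in PI and 627 ± 785 in CI, and 1005 ± 667 in PC and 375 ± 103 in CC (SD, n = 5 each). Its log2 difference was 0.65 ± 0.61 (SE) ipsilaterally, 1.57-fold with a 95% interval of 0.649 to 3.79 (limma, adjusted p = 0.999). Contralaterally it was 1.21 ± 0.61, 2.32-fold with an interval of 0.958 to 5.6 (limma, adjusted p = 0.9998; unadjusted p = 0.0612). By edgeR the contralateral difference of SERPING1 was 1.41 (adjusted p = 0.839, unadjusted p = 0.0352), and by DESeq2 1.41 (adjusted p = 0.666, unadjusted p = 0.0317). Without CI1 the ipsilateral difference was 1.24 (limma, adjusted p = 0.999). Without PI1, PI4 and CI3 the ipsilateral difference was −0.13, the opposite direction. That fit leaves out PI4, the highest PI library, and CI3, the lowest CI library, and keeps CI1, the highest CI library.

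**Figure D2:**
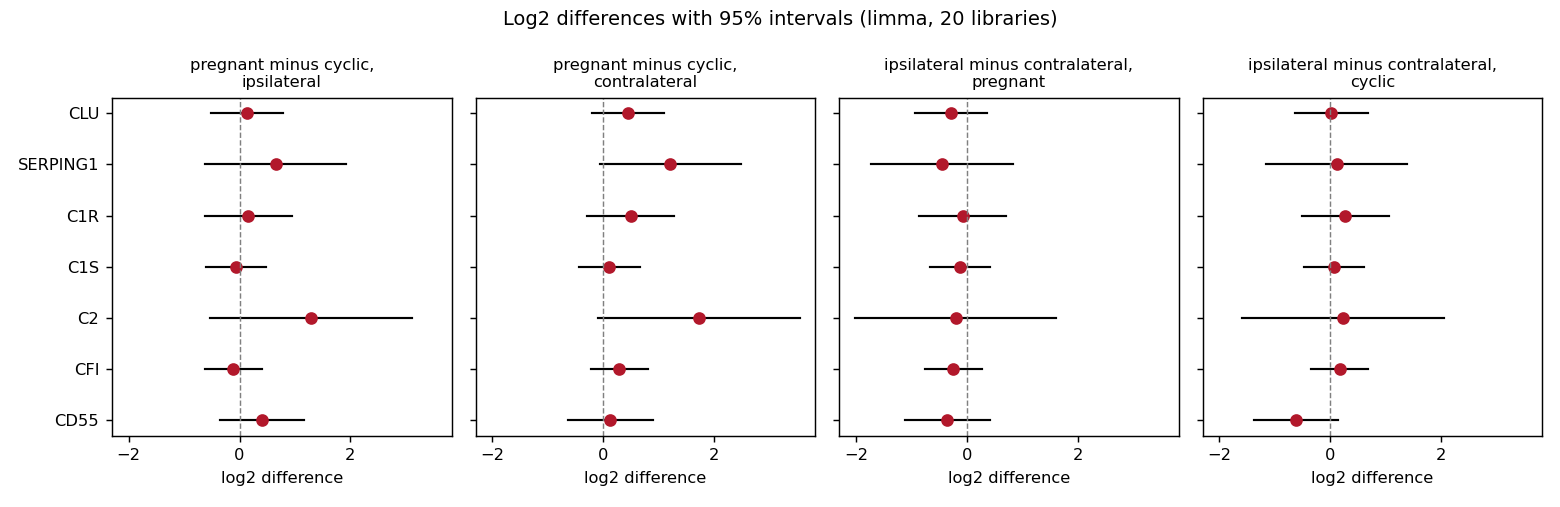
Log2 differences of the 7 members (points) with 95% intervals (lines) from limma over 20 libraries, for pregnant minus cyclic and ipsilateral minus contralateral. Every interval includes 0, and the intervals of C2 and SERPING1 are wider than those of the other members in each panel.

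The genes of the proteases C1R and C1S lie next to each other in RefSeq's gene table for the horse (assembly TB-T2T). C1R stood at 339.8, 369, 751, 493 and 217 normalized counts in PI1 to PI5, against 588, 380.3, 249, 361 and 286 in CI1 to CI5. Contralaterally it stood at 271, 261, 848, 742 and 287 in PC1 to PC5, against 207, 448, 489, 215 and 228 in CC1 to CC5. Numbers 3 and 4 of the pregnant mares and CI1 were high, as for C2, but number 1 of the pregnant mares was not. CC3 (489) and CC2 (448) came close to PI4 (493) in C1R, whereas their C2 was low (33.6 and 20.1). The log2 difference of C1R was 0.16 ± 0.38 (SE) ipsilaterally (limma, adjusted p = 0.999) and 0.50 ± 0.38 contralaterally (limma, adjusted p = 0.9998), with 95% intervals of −0.62 to 0.95 and −0.28 to 1.29.

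C1S ranged from 289 to 509 in PI, with a median of 389, and from 294 to 531 in CI, with a median of 440.3. It ranged from 349 to 626 in PC, with a median of 394, and from 233 to 628 in CC, with a median of 431. The ranges of the 4 groups overlapped, and that of CC was the widest. Means were 401 ± 89.0 in PI and 422 ± 96.2 in CI, and 437 ± 114 in PC and 428 ± 185 in CC (SD, n = 5 each), with log2 differences of −0.07 ± 0.26 and 0.11 ± 0.26 (SE; limma, adjusted p = 0.999 and 0.9998). The intervals, −0.61 to 0.47 and −0.43 to 0.66, leave room for differences of up to 1.58-fold in C1S.

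Clusterin, the chaperone and inhibitor of the late components, had 12573, 10314, 23868, 21249 and 11105 normalized counts in PI1 to PI5, against 16224, 14362, 11838, 13436 and 12104 in CI1 to CI5. Contralaterally CLU had 12205, 12895, 24605, 28749.9 and 17394 in PC1 to PC5, against 16711, 19011, 18778, 6319 and 11095 in CC1 to CC5. PI3, PI4, PC3 and PC4 lay above every cyclic library, and the other 6 pregnant libraries lay among the cyclic ones. CLU took 0.111% of the reads in CC4 (95% exact interval 0.108 to 0.115) and 0.491% in PC4 (0.487 to 0.495), intervals that cover counting error only.

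CLU averaged 15822 ± 6272 in PI and 13593 ± 1791 in CI, and 19169.7 ± 7286 in PC and 14383 ± 5522 in CC (SD, n = 5 each). The log2 difference was 0.14 ± 0.31 (SE) ipsilaterally, 1.1-fold with a 95% interval of 0.702 to 1.73 (limma, adjusted p = 0.999). It was 0.44 ± 0.31 contralaterally, 1.36-fold with an interval of 0.865 to 2.13 (limma, adjusted p = 0.9998). CLU means followed the order PC, PI, CC, CI, with steps smaller than the SD of the higher group. Without CC4, the library with the lowest CLU, the contralateral difference was 0.17.

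CFI, the protease that degrades active C3 and C4 fragments, ranged from 2667 to 6391 in PI, with a median of 4088, and from 3188 to 6335 in CI, with a median of 4236. It ranged from 3738 to 6151 in PC, with a median of 4343, and from 2704 to 5619 in CC, with a median of 3789. CFI spanned the smallest range of the 7 members, 2.4-fold over 20 libraries, and the groups overlapped. Log2 differences for pregnancy were −0.12 ± 0.25 ipsilaterally and 0.29 ± 0.25 contralaterally (SE; limma, adjusted p = 0.999 and 0.9998).

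CD55, the cell surface regulator, was close to the detection limit. It had 1 to 13 reads in PI, 6 to 14 in PC, 1 to 14 in CI and 3 to 13 in CC, where 3 reads equal 1.75 to 7.03 normalized counts depending on the library. In normalized counts its means were 7.23 ± 5.2 in PI and 4.45 ± 3.2 in CI, and 8.9 ± 3.12 in PC against 7.7 ± 1.66 in CC (SD, n = 5 each). Differences between groups in CD55 were not detectable at this depth, and log2 differences of 0.40 ± 0.37 and 0.13 ± 0.37 (SE) depend on the pseudocount.

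Across the members, the median log2 difference for pregnancy was 0.16 ipsilaterally, with 5 of 7 members above 0, against a median of −0.01 over all features, of which 48.1% were above 0. Contralaterally the median was 0.44 with 7 of 7 members above 0, against 0.01 over all features, of which 51.8% were above 0. The members share libraries, and same-numbered libraries of pregnant mares deviated together across all features (r = 0.53 to 0.70), so neither the 7 members nor the 2 sides count separately. The contralateral median was 0.25 without PC3, the ipsilateral one −0.03 without PI3 and 0.38 without PI5.

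Within each status, the oviduct on the side of ovulation was also set against the opposite one. In pregnant mares 0 of 7 members had a log2 difference above 0 for ipsilateral against contralateral, against 44.6% of all features, with a median of −0.24 against −0.03. CLU differed by −0.28 ± 0.31, C2 by −0.20 ± 0.87 and SERPING1 by −0.44 ± 0.61 (SE; limma, adjusted p = 0.999 for each). This fit does not use the pairing by number; with the replicate block as a random term 0 of 7 members were called, and 455 features had an unadjusted p under 0.05, against 112 without it. By number, CLU was higher ipsilaterally in 1 of 5 pregnant pairs, C2 in 3 of 5 and SERPING1 in 2 of 5. Without PI5, but with PC5 of the same number kept, the SERPING1 difference was 0.08 and that of C2 0.49, against −0.20 with PI5. This breaks pair 5, so the turn in direction is not a result of the remaining pairs. In pairs 1 to 5, C2 differed by 0.55, 0.24, 0.18, −1.10 and −0.88. SERPING1 differed by 0.42, 0.10, −0.29, −0.58 and −1.87.

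In cyclic mares 6 of 7 members were above 0, beside 51.4% of all features, with a median of 0.12 against 0.01. SERPING1 differed by 0.12 ± 0.61 and C2 by 0.24 ± 0.87 (SE; limma, adjusted p = 1.0 for both), and without CI1 by −0.47 and −0.42. CI1 had 2020.1 normalized counts of SERPING1 and 186 of C2, whereas CC1, of the same number, had 275 and 13.2. CD55 differed by −0.62 ± 0.37, from 1 to 14 reads a library. The interaction of pregnancy and side was −0.44 ± 1.24 for C2, −0.56 ± 0.86 for SERPING1 and −0.30 ± 0.44 for CLU (SE; limma, adjusted p = 1.0 for each).

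**Figure D3:**
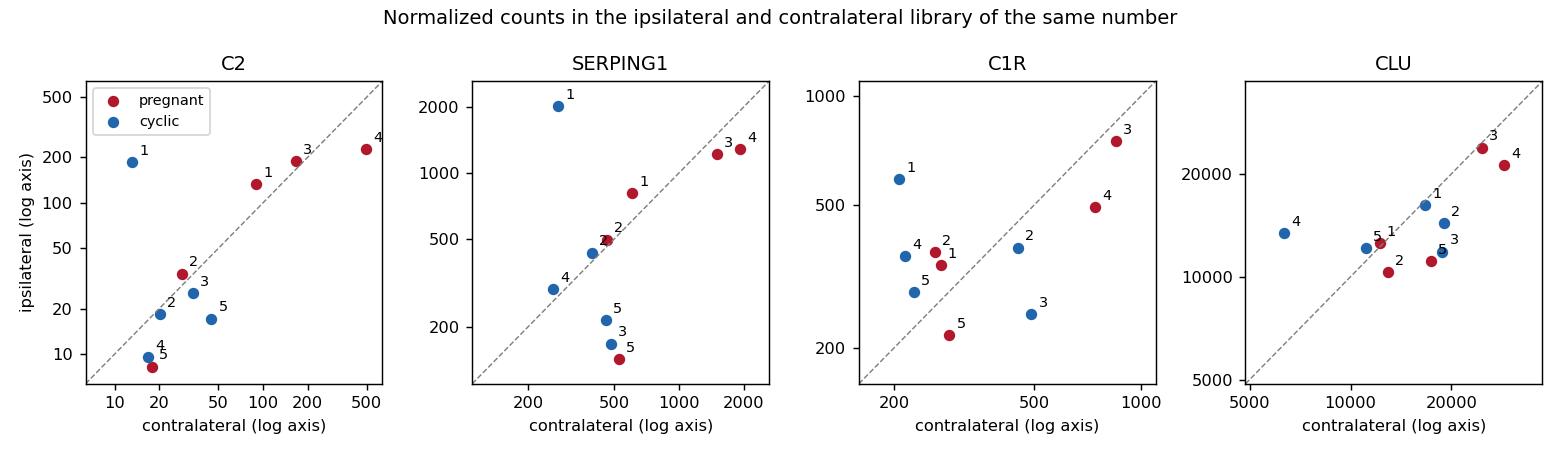
Normalized counts of C2, SERPING1, C1R and CLU in the ipsilateral (vertical) against the contralateral library (horizontal) of the same status and number, both on log axes; the dashed line marks equal values. For C2 and SERPING1 the pregnant libraries 1, 3 and 4 are high in both oviducts, while cyclic number 1 is high ipsilaterally and low contralaterally.

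The libraries with high C2 were also those with high interferon-stimulated genes, a list of antiviral effectors and sensors of which 21 of 26 were measured. The score of that list, the mean log2 value of its members, was 8.97, 7.16, 9.16, 9.27 and 6.38 in PI1 to PI5, against 8.33, 6.9, 7.13, 6.62 and 7.15 in CI1 to CI5. Contralaterally it was 8.86, 7.01, 9.3, 9.63 and 7.11 in PC1 to PC5, against 6.45, 6.87, 7.37, 6.5 and 7.59 in CC1 to CC5. PI1, PI3, PI4, PC1, PC3, PC4 and CI1 held the 7 highest values of the score, of C2 and of SERPING1, and the 13 other libraries had C2 at 8.27 to 44.8. In PI5 both the score and C2 were the lowest of all. The list had 20 of 21 genes above 0 for pregnancy ipsilaterally and 21 of 21 contralaterally, with medians of 1.0 and 1.36 and 0 called.

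Leukocyte markers moved partly with the same libraries. The T and NK cell score was highest in PC4 (5.97), CI1 (5.41) and PI2 (5.4), whereas C2 was 34 in PI2. Over the 20 libraries, Pearson's r of log2 values with this score was 0.765 for C2 and 0.816 for SERPING1. With the myeloid score it was 0.555 for C2 and 0.630 for SERPING1. A leukocyte marker score, the mean log2 value of T and NK, B and plasma cell and myeloid markers together, served as a covariate. With it, the pregnancy difference of C2 was 0.63 on both sides. That of SERPING1 was 0.13 ipsilaterally and 0.34 contralaterally, and neither gene was called (limma). The part of leukocytes in these differences was not tested further. T and NK cell markers had 10 of 11 tested genes above 0 for pregnancy on each side, with medians of 0.80 ipsilaterally and 0.96 contralaterally and 0 called. Multiciliated cell markers had 12 of 12 above 0 on each side, with medians of 0.23 and 0.31. Myeloid markers had 2 of 9 above 0 ipsilaterally and 8 of 9 contralaterally, with medians of −0.07 and 0.19. Stromal markers had 0 of 9 genes above 0 for pregnancy on either side, with medians of −0.53 ipsilaterally and −0.44 contralaterally.

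**Figure D4:**
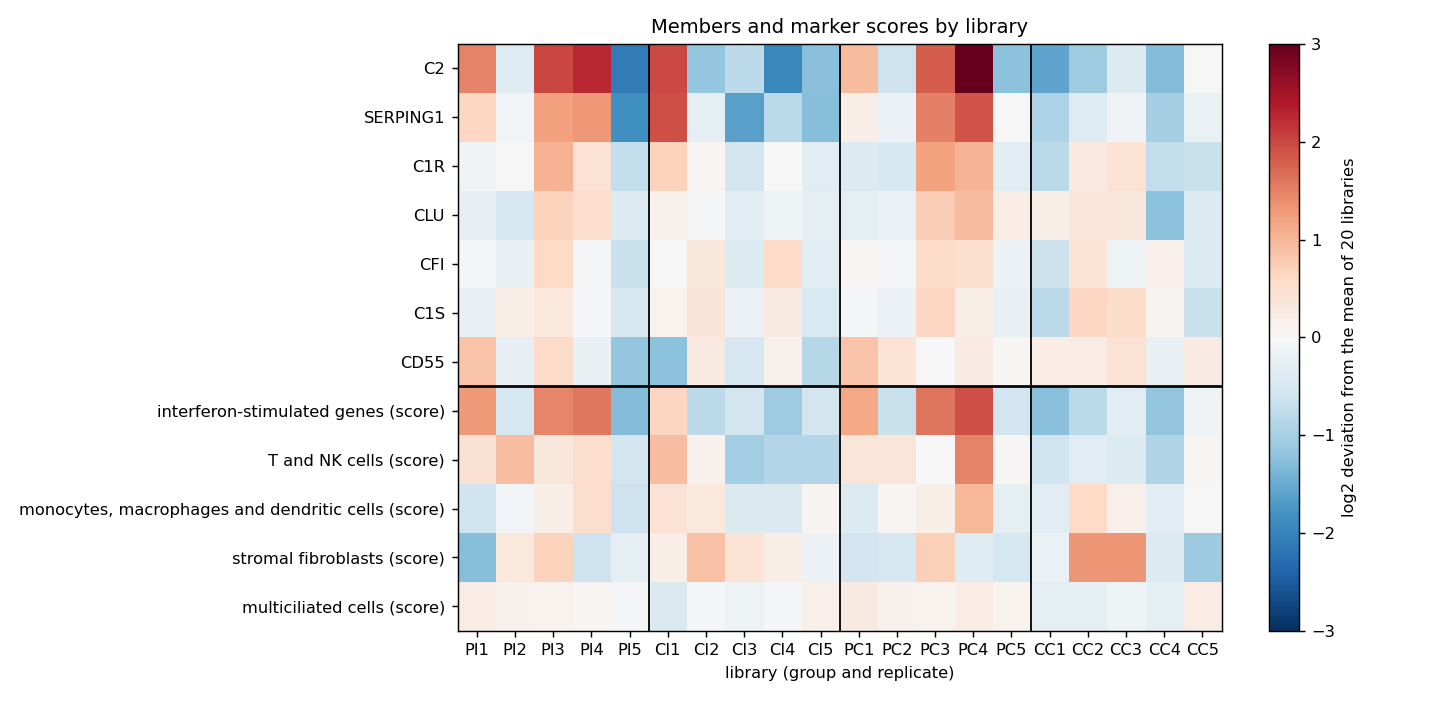
Log2 deviation from the mean of 20 libraries (colour) for the 7 members and for 5 list scores, with libraries of PI, CI, PC and CC from left to right. The 7 libraries with the highest C2 are the 7 with the highest interferon score, while C1S and CFI show smaller deviations.

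The features most like each member were sought over the 20 libraries, by Pearson's r of log2 values, as a description of libraries that differ in depth and cell make-up and, among pregnant mares, deviate together by number. C2 was most like ZBP1 (r = 0.972), a sensor of nucleic acids, and PARP9 (r = 0.965), an interferon-induced protein. SERPING1 was most like DQA_1 (r = 0.980) and DRA (r = 0.969), chains of MHC class II molecules, whose reads near-identical copies could share. C1R was most like HLA-DMA (r = 0.879), which loads MHC class II molecules, and the aminopeptidase LAP3 (r = 0.874). For the pairs so chosen, r within the 10 pregnant and within the 10 cyclic libraries was 0.958 and 0.978 for C2 and ZBP1, 0.983 and 0.970 for SERPING1 and DQA_1, and 0.888 and 0.853 for C1R and HLA-DMA.

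CLU was most like CNDP2 (r = 0.942), a dipeptidase, and MAD2L2 (r = 0.884), and r between CLU and CNDP2 was 0.901 without PC4 and CC4, the libraries with the highest and lowest CLU. CFI and C1S shared CEPT1 (r = 0.881 and 0.842), an enzyme of phospholipid synthesis, followed by FAM46C for CFI (r = 0.875) and GPBAR1, a bile acid receptor, for C1S (r = 0.823). CD55 reached r = 0.750 with ELOVL6 and 0.738 with EPHX1, on few reads.

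**Figure D5:**
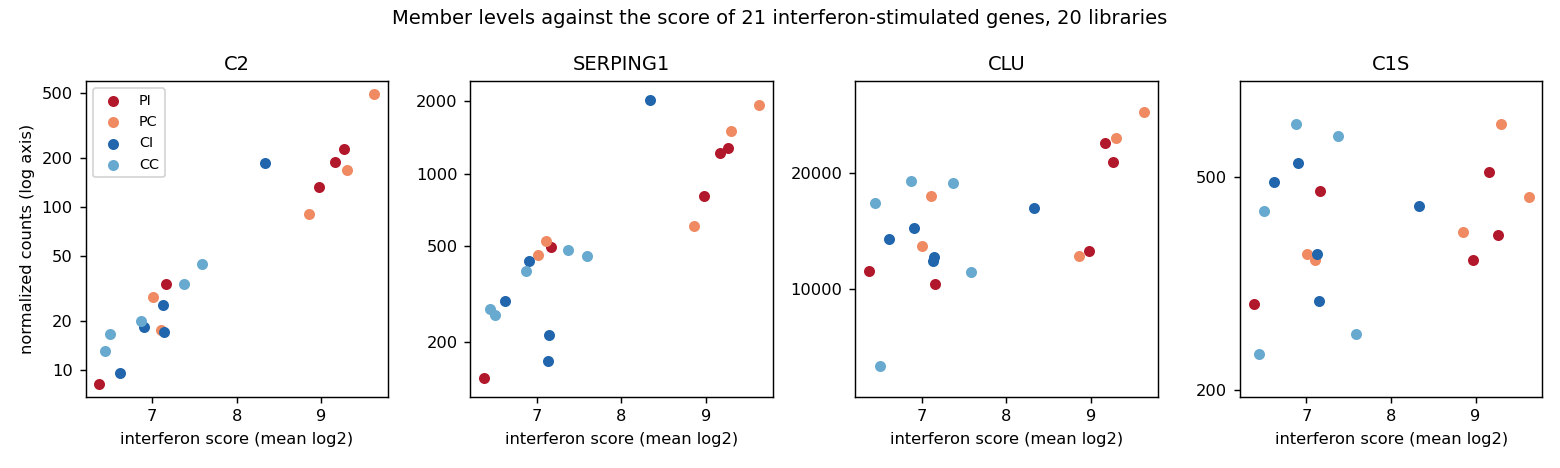
Normalized counts (log axis) of C2, SERPING1, CLU and C1S against the score of 21 interferon-stimulated genes (mean log2 value) in 20 libraries coloured by group. C2 is 90.4 or more in the 7 libraries with a score of 8.33 or more and 44.8 or less in the others, while C1S shows no such step.

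Of 43 other complement genes, 29 were found and 17 passed the filter. Of these 17, 0 were called in any comparison (limma). For pregnancy 10 were above 0 and 7 below 0 ipsilaterally, with a median of 0.05, and 14 above and 3 below contralaterally, with a median of 0.25. The C1q chains recognise targets for C1R and C1S. C1QA, 1 of these chains, stood at 238 ± 159 in PI and 174 ± 79.5 in CI, and at 289 ± 206 in PC and 165 ± 79.9 in CC (SD, n = 5 each). It differed by 0.31 ± 0.46 ipsilaterally and 0.69 ± 0.46 contralaterally (SE). C1QB differed by 0.13 ± 0.39 and 0.51 ± 0.39, and C1QC by 0.31 ± 0.38 and 0.60 ± 0.38, in the same order. For each chain the limma adjusted p was 0.999 ipsilaterally and 0.9998 contralaterally.

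Smallest p values among these genes belonged to ITGAM, a chain of complement receptor 3, to C1RL, a protease related to C1R, and to COLEC10, a lectin, on the ipsilateral side. ITGAM stood at 60.6 ± 18.2 normalized counts in PI against 98.7 ± 26.2 in CI (log2 difference −0.69 ± 0.27). Contralaterally ITGAM stood at 61.7 ± 18.4 in PC against 109.9 ± 34 in CC (log2 difference −0.81 ± 0.27). C1RL stood at 173 ± 55.5 in PI against 95.5 ± 61.7 in CI (log2 difference 1.15 ± 0.47) (SD and SE, n = 5 each). Contralaterally the anaphylatoxin receptor C3AR1 differed by 1.02 ± 0.43 and C6, of the terminal pathway, by 0.30 ± 0.17, after ITGAM. None passed (limma, adjusted p = 0.999 ipsilaterally and 0.9998 contralaterally). COLEC10 had 0 to 17 reads, near the floor. Genes C8A, C5AR1, C5AR2 and CPN1 were at 0 in all 20 libraries. C3, C4A, C4B, C5 and CD59 were among those not found under their symbols.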

How the data were processed

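Values are a signal per gene, deposited by the authors as TMM-normalized counts. Per the labels' protocols, libraries came from a stranded total RNA kit after rRNA depletion, although polyA RNA is the molecule given. CASAVA 1.8 is named in the submitters' processing notes. Not given in the sources used here: aligner, counter, strand setting, build and annotation, so no coordinates are printed and overlapping genes stay uncertain. All 20 columns matched 1 sample each. Dividing each column by its smallest value above 0 gave whole reads for 100% of values (tolerance 0.01 reads). Floors are 3 reads.

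Features above 1 CPM in at least 5 libraries were kept. limma 3.58.1 (R 4.3.3; trend, robust, 2-sided, Benjamini-Hochberg at 0.05) was fitted to 4 group means; folds on its scale understate low genes. edgeR 4.0.16 and DESeq2 1.42.0 on recovered reads were alternatives, and the procedure was tested on simulated data. The simulated libraries were independent, with the same dispersion for every feature and changes only in features with higher counts. That test thus does not tell what could be found for members as variable as C2 and SERPING1 or as low as CD55. Groups, replicate numbers and comparisons come from the labels. All 40 within-group and 10 same-status, same-number pairs differed by more than counting noise (chi-square per df at least 4.93).

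Same-numbered PI and PC libraries deviated together (r = 0.53 to 0.70, 5 of 5 best with their own number), so they were taken as paired from the data; cyclic ones were not (r = −0.04 to 0.68, 3 of 5). The limma fit has no pairing term. Fits with the block by status and number are alternatives, and they join cyclic libraries by number as well as pregnant ones. Members and lists were chosen with earlier results of these data known. Named are the members and, for each, the 2 features with the highest r. Per pregnancy comparison, the 3 other complement genes with the smallest p are named too. The C1q chains, and marker, zero or missing genes named beyond these, were chosen after their values were seen, as illustration. Depth, as recovered, was 2795168 to 10126484 reads a library.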

Additional observations from a re-analysis of the deposited data

Results flagged for a closer look

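Of 28 groups of 5 libraries examined, 4 for each of the 7 members, 2 held a library far from the other 4 in normalized counts. For normally distributed values chance gives about 1 in 20. These counts were not put on the log2 scale of the tests, so that rate may not hold for them. C2 and SERPING1 varied together over the 20 libraries (r = 0.911), so the 2 flags do not count separately. Both flags were for CI1: C2 at 186 normalized counts, with the next cyclic ipsilateral library at 25.2, and SERPING1 at 2020.1, with the next at 435. CI1 also had the highest interferon score (8.33) and T and NK cell score (5.41) of its group, and the lowest multiciliated cell score (10.75) and endothelium score (4.31) of all 20 libraries; their part in these values was not tested.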

How the results depend on the processing

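Over 34 alternatives, 20 of them leaving out 1 library, 0 of 863 member values were called, so the count of members called stayed at 0 of 7. The count of all features called was 0 except for contralateral pregnancy, with 12 by DESeq2 (950 unadjusted), 1 with CPM without TMM and 1 with log2 reads as a covariate. edgeR called 0 there (838 unadjusted), and limma had 669 unadjusted. Unadjusted counts by edgeR and DESeq2 were 494 and 560 for ipsilateral pregnancy, 77 and 83 for side in pregnant mares, 50 and 55 in cyclic mares and 39 and 49 for the interaction. The replicate block changed no call. With the block by status and number as a random term (correlation 0.39), C2 kept its contralateral difference of 1.73 (adjusted p = 0.9998), and 455 features had an unadjusted p under 0.05 for side in pregnant mares. With number 1 to 5 as a fixed block the limma adjusted p of C2 was 0.735 (unadjusted 0.0426) and of SERPING1 0.761 contralaterally. That block joins pregnant and cyclic libraries of the same number, which no label links. Their deviations across all features had r of −0.40 to 0.59, so these p values carry no more weight than those without the block. Without PI5 or CI1, C2 and SERPING1 had an unadjusted p under 0.05 ipsilaterally (limma). Without PC2 or PC5, and with only the groups compared, they did contralaterally, all with adjusted p of 0.812 to 0.9998. Leaving out PI5, PC2 or PC5, low in both genes, or CI1, high in both, enlarges the pregnancy differences. Leaving out PI4 or PC4, the highest library of its group for both genes, makes these differences smaller.

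Directions turned in 59 values; the cause was not tested. With the leukocyte score these were, for ipsilateral pregnancy, CLU (−0.0084) and C1R (−0.090), for contralateral C1S (−0.055), for side in pregnant mares C1R (0.045) and C2 (0.094), in cyclic mares CLU (−0.012), and for the interaction C2 (0.0010). With log2 reads they were CFI (0.033) and C1S (0.11) for ipsilateral and C1S (−0.027) for contralateral pregnancy, C1R (0.23) and C1S (0.094) for side in pregnant mares, CLU (−0.096), C1S (−0.043) and SERPING1 (−0.0079) in cyclic mares, and CLU (0.044), C1R (0.11) and C1S (0.14) for the interaction. For side in cyclic mares CLU and C1S were −0.054 and −0.0090 with CPM without TMM, −0.069 and −0.015 by edgeR and −0.070 and −0.019 by DESeq2. SERPING1 was −0.13 ipsilaterally without PI1, PI4 and CI3.

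Leaving out 1 library of the groups compared gave, for ipsilateral pregnancy, −0.030 to 0.27 (CLU), −0.28 to 0.031 (CFI), −0.065 to 0.38 (C1R) and −0.19 to 0.040 (C1S). For contralateral pregnancy it gave −0.075 to 0.28 (C1S) and −0.0044 to 0.22 (CD55). For side in pregnant mares it gave −0.30 to 0.18 (C1R), −0.21 to 0.019 (C1S), −0.72 to 0.49 (C2) and −0.71 to 0.079 (SERPING1). In cyclic mares it gave −0.25 to 0.15 (CLU), −0.12 to 0.23 (C1S), −0.42 to 0.56 (C2) and −0.47 to 0.42 (SERPING1). For the interaction it gave −0.35 to 0.0056 (C1S), −0.96 to 0.25 (C2) and −0.87 to 0.026 (SERPING1). These fits kept the other library of the same status and number, so they break pairs. Depth limits CD55 and the lowest C2 values.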

Other observations

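Within a library, the ratio of C1R to C1S normalized counts exceeded 1 in 5 of 20 libraries: PI3 (1.47), PI4 (1.27), PC3 (1.36), PC4 (1.62) and CI1 (1.34). In the other 15 it was 0.50 to 0.974. The ratio was chosen after its values were seen, is not corrected for transcript length, and was not tested between groups. These 5 libraries are among the 7 with the highest C2.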
